A study of Mus musculus with 6 samples.

Results

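Imprinted growth genes were followed in mouse bone marrow mesenchymal stromal cells (BMSCs) that had been cultured in osteogenic medium with or without a low dose of nickel. The 10 genes were Igf2, H19, Dlk1, Meg3, Peg3, Mest, Ndn, Cdkn1c, Grb10 and Plagl1, chosen by name as members of the imprinted gene network of immature mesenchyme, and each matched 1 of the 54532 genes in the deposited tables. RNA was sequenced from 6 cultures of primary wild type BMSCs, 3 in each group. All 6 had spent 7 days in a medium that held β-glycerophosphate at 10 mM, ascorbic acid at 50 μg/mL, dexamethasone at 100 nM and serum at 10%. The 3 Ni cultures had also received 0.1 μM nickel ion. The control cultures received vehicle in place of nickel. For dexamethasone the study's methods state a lower concentration than the sample labels. The strain, sex and age of the donor mice, and whether a culture came from 1 animal or from a pool, are not given in the sources used here.

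An imprinted gene is transcribed mainly from the copy inherited from 1 parent, and the choice is kept by DNA methylation at CpG sites of a control region laid down in the germ line. Many imprinted genes are active in fetal mesenchyme and are turned down after birth. As a rule, the genes expressed from the paternal copy favour growth and those expressed from the maternal copy restrain it. Of the genes followed here, Igf2, Dlk1, Peg3, Mest, Ndn and Plagl1 are expressed mainly from the paternal copy, and H19, Meg3 and Cdkn1c from the maternal copy. Grb10 is expressed from the maternal copy in most tissues and from the paternal copy in neurons. The counts do not separate the 2 parental copies, so the values below are sums over both.

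The sequences that control or derive from these genes are shown first. H19 carries a microRNA precursor in an exon, and Mest carries one in an intron. Igf2 (Mir483) and Meg3 (Mir1906-1 and Mir770) carry others, whose sequences are not shown. The mature forms from H19 and Mest are given here, 5′ to 3′ and with the seed (bases 2 to 8) in capitals. They are 1 kind of product through which these 2 host transcripts can act on other mRNAs.
mmu-miR-675-5p (H19, chr7:142577112-142577133, minus strand): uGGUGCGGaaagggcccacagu
mmu-miR-675-3p (H19, chr7:142577078-142577099, minus strand): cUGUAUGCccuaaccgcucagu
mmu-miR-335-5p (Mest, chr6:30741314-30741336, plus strand): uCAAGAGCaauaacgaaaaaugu
mmu-miR-335-3p (Mest, chr6:30741354-30741375, plus strand): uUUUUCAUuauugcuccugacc
Sequences and positions are those of RefSeq on GRCm38.p6. No seed is shared among them. The libraries were made from mRNA and do not measure mature microRNAs, and the tables hold 0 counts on Mir675 and 1 count on Mir335 over the 6 libraries. Mir675 shares 84 bases with H19 on the same strand, and how reads in shared exons were assigned is not stated. Its 0 therefore does not show that no read covered it.

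RefSeq start sites were matched for 8 of the 10 genes, with 15 start sites in all, and none was matched for H19 and Cdkn1c. The 250 bases before the start are shown for the 2 genes with the smallest p between the groups, Mest and Grb10, and for the 2 genes at or near 0 counts, Dlk1 and Meg3. For a gene with several starts, one with its largest number of CpG sites is shown. All CpG sites of a stretch are in capitals, and whether a stretch belongs to an imprint control region was not examined.
Mest (chr6:30737800-30738049, plus strand): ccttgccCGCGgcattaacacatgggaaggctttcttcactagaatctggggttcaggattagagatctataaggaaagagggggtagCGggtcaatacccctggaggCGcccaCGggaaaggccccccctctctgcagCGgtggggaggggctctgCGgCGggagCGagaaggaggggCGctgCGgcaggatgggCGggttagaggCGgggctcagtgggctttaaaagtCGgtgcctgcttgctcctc
Grb10 (chr11:12037421-12037670, minus strand): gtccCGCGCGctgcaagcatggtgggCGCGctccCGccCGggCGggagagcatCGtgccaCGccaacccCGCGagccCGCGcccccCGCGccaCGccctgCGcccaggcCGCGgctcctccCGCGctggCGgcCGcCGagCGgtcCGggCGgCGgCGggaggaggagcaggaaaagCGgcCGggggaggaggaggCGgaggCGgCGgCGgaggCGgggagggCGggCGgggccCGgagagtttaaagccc
Dlk1 (chr12:109452573-109452822, plus strand): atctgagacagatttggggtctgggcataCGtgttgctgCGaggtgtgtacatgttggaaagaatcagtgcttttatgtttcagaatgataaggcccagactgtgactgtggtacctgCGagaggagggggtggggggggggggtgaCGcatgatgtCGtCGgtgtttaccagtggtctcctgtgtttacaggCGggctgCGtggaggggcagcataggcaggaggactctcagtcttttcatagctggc
Meg3 (chr12:109540746-109540995, plus strand): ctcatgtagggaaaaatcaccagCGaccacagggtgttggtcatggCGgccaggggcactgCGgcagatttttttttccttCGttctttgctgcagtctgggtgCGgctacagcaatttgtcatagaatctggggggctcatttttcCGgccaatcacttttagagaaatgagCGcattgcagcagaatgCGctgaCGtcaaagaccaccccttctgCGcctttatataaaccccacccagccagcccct
The Grb10 stretch holds 40 CpG sites, a density reached by 1.31% of the 32851 RefSeq promoters of the same length. The Mest stretch holds 14 (29.4% of promoters hold as many), the Meg3 stretch 10 (37.8%) and the Dlk1 stretch 8 (43.0%), against a median of 6 over all promoters. The letters GGGGCCCC, the core that the Plagl1 protein is known to bind and which read the same on both strands, occur in 0.889% of the promoters and, among the 15 stretches of the imprinted growth genes, in that of Peg3. Methylation was not measured in these cultures.

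Depth was similar between the groups, with 16101033 to 18183515 counts in the control libraries and 17365933 to 18642504 in the Ni libraries. Control replicate 3 lay nearer to the Ni libraries (mean distance, 1 minus Pearson's r over the log2 CPM of all genes tested, 0.0131) than to the other controls (0.0220), so calls that appear for these genes and the listed genes when it is left out are given beside the result. It was picked for its likeness to the Ni libraries, so leaving it out tends to widen the difference between the groups. The p-values of that fit describe how much rests on this library and are not a test of nickel. All 10 of 10 osteoblast markers and all 10 of 10 stromal markers were detected, and so were all 12 of 12 macrophage markers, which took 2.53% to 3.04% of the counts of the controls and 2.54% to 2.62% of those of the Ni libraries. All 6 adipocyte markers were detected too, and together took 0.0842% to 0.117% of the counts of the controls and 0.0818% to 0.0936% of those of the Ni libraries. The summed markers of neutrophils, endothelial cells and skeletal muscle each took at most 0.00712% of the counts of a library, and S100a9, Ltf, Myod1 and Myog were at 0 in all libraries. In such a mixed culture, fewer cells of a type and less RNA per cell cannot be told apart.

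H19 was the most abundant of these genes, and the levels ran down to Dlk1 with no read. On the FPKM scale, which divides counts by gene length and by library depth, the controls held 151 ± 23.5 FPKM of H19 (SD, n = 3) and 13.8 ± 3.28 FPKM of Grb10 (SD, n = 3). A middle group followed with Plagl1 at 4.71 ± 0.649, Ndn at 4.39 ± 0.974 and Mest at 4.37 ± 1.43 FPKM (SD, n = 3), whose ranges over the control libraries overlapped. Below these stood Igf2 at 0.816 ± 0.0689 and Cdkn1c at 0.694 ± 0.0950 FPKM (SD, n = 3), which also overlapped, then Peg3 at 0.279 ± 0.0485 FPKM (SD, n = 3) and Meg3 at 0.0124 ± 0.0105 FPKM (SD, n = 3). H19 alone took 60.6% to 67.0% of the counts of the 10 genes in each library and ranked 285th of the 14624 genes tested by mean CPM. The plot of CPM by library shows these levels gene by gene.

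**Figure D1:**
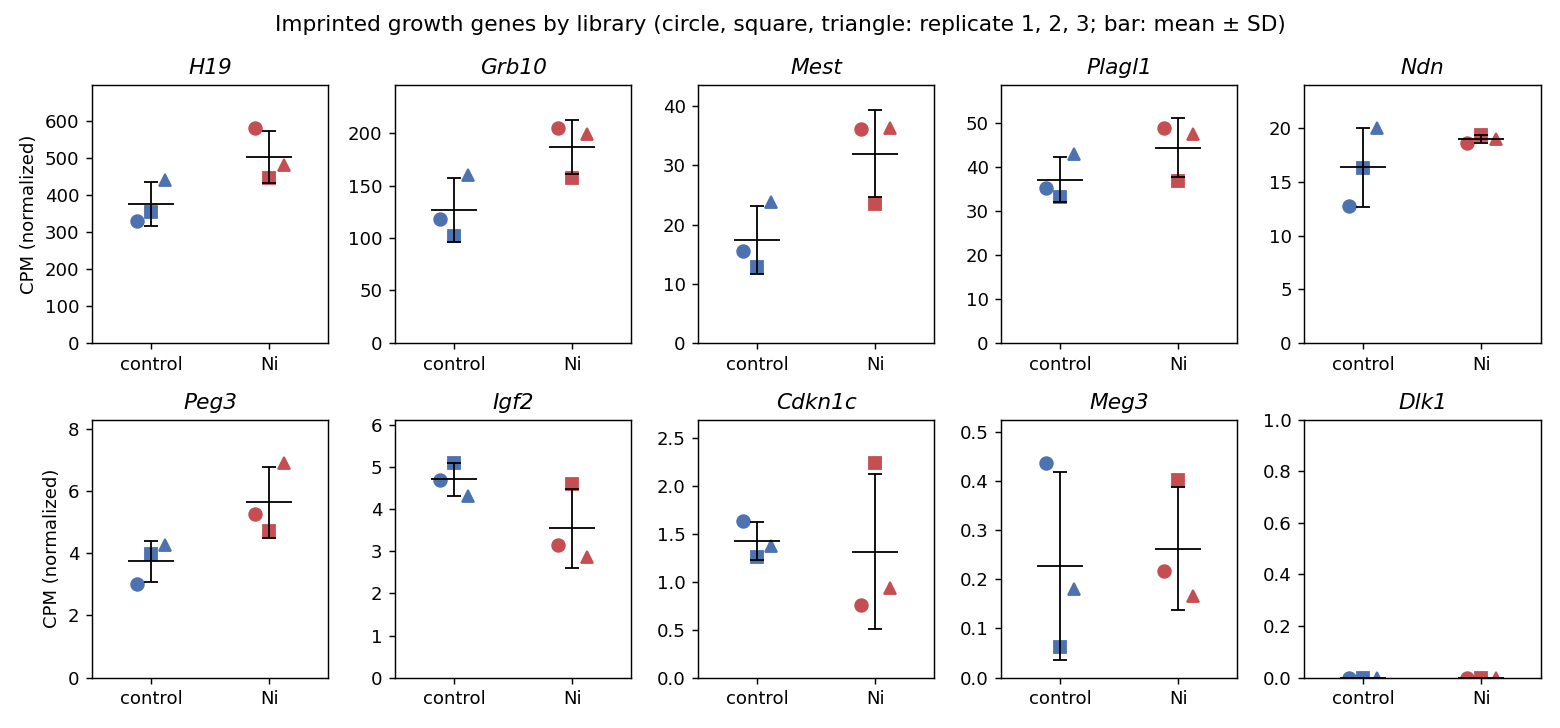
Normalized CPM (counts scaled to library depth, vertical axis, a scale of its own for each gene and starting at 0) of the 10 imprinted growth genes in the 3 control and 3 Ni libraries, with points for single libraries and bars for the mean ± SD. H19 lies between 329.7 and 581 CPM and Dlk1 at 0, and for H19 and Peg3 every Ni library lies above every control library.

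The question was which of these genes differed between cultures with and without nickel. edgeR's quasi-likelihood test compared Ni with control over the 14624 genes left by its low-count filter, with Benjamini-Hochberg adjustment over all of them, and its p-values measure the spread between these 6 cultures. Of the imprinted growth genes, 8 passed the filter, and each of the 8 had at least 10 counts in all 6 libraries. None was called at an adjusted p under 0.05 in edgeR (0% of all genes tested were), and 4 had an unadjusted p under 0.05, all of them higher in the Ni libraries. That share of 4 in 8 stands beside 7.59% of all genes tested that were higher and 5.83% that were lower at that p. The number at that p in either direction moved with single libraries, to 2 of 8 without control replicate 1 or without Ni replicate 1 and to 6 of 8 without control replicate 3 or without Ni replicate 2 (there with Igf2 lower), while the count over all genes went from 1963 to between 868 (without control replicate 2) and 4125 (without control replicate 3). The log2 fold changes, Ni over control (also given as log2 differences, Ni minus control), were positive for 6 genes and negative for 2, with a median of 0.34, beside a median of -0.01 over all genes tested, of which 48.1% were positive. DESeq2, which also tested Meg3, called 1 of 9, Mest, at an adjusted p under 0.05, where it called 1.94% of the 13593 genes to which it gave an adjusted p. Without control replicate 3, edgeR called H19, Mest and Grb10, where it called 15.2% of 15044 genes. With no low-count filter it called H19, Mest and Grb10 of 9, beside 3.97% of all genes, and without Ni replicate 2 it called 0 of 8, beside 0.0866%. With the replicate number as a block it called Mest and Grb10 of 8, beside 2.15% of all genes, or 1.85% with the gene-length trend also removed.

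H19 and Igf2 form 1 imprinted domain on chromosome 7, in which both genes draw on the same downstream enhancers and, as a rule, each is active on the opposite parental copy. H19 (ENSMUSG00000000031), a long noncoding RNA that restrains growth, lies at chr7:142575529-142578143 of GRCm38 on the minus strand. It stood at 329.7, 354 and 442 CPM in control replicates 1 to 3, and the Ni libraries had 581, 447 and 480.5 CPM in the same order of number. Every Ni library was thus above every control, with control replicate 3 and Ni replicate 2 almost level. Control libraries averaged 375 ± 58.9 CPM (SD, n = 3), and Ni libraries, at 503 ± 70.0 CPM (SD, n = 3), were 1.34 times as high. The log2 fold change of 0.42 (standard error, SE, 0.14) did not pass the adjustment (unadjusted p = 0.0147, adjusted p = 0.311, edgeR), and without control replicate 3 it was 0.56 with an adjusted p of 0.00517.

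Igf2 (ENSMUSG00000048583), the fetal insulin-like growth factor, lies 72.6 kb from H19 on the same strand, at chr7:142650766-142666816. The control libraries held 86, 81 and 72 counts and the Ni libraries 58, 80 and 52, which put Ni replicates 1 and 3 below the controls and Ni replicate 2 among them. Control libraries averaged 4.71 ± 0.391 CPM (SD, n = 3) against 3.54 ± 0.931 CPM for Ni (SD, n = 3), and the log2 fold change of -0.41 (SE 0.24) had an adjusted p of 0.479 in edgeR. Without Ni replicate 2 it was -0.64 (unadjusted p = 0.0273, adjusted p = 0.270, edgeR). Of the 5723 exon bases of Igf2 in GENCODE M21, 64.5% also belong to other genes, 3596 of them to Gm49394 on the same strand, which had 0 counts in all libraries. How reads in shared exons were assigned is not stated, so the level of Igf2 is uncertain and may rest on its 2029 unshared bases.

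Because the estimates of the 2 neighbours had opposite signs, their ratio was compared, a comparison chosen after the values had been seen. H19 had 70.2, 69.4 and 102 times the CPM of Igf2 in the controls, by replicate number, and 185, 97.0 and 167 times in the Ni libraries. On the log2 scale the mean difference was 6.27 in controls and 7.12 in Ni libraries, 0.85 higher with Ni (exact permutation test over samples, two-sided, p = 0.2, where 0.1 is the smallest p that 3 libraries against 3 can give). The groups overlapped, with Ni replicate 2 below control replicate 3.

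Grb10 (ENSMUSG00000020176), an adaptor protein that binds the insulin and IGF1 receptors and dampens their signal, lies at chr11:11930508-12038683. It was at 118, 102 and 160.4 CPM in controls 1 to 3 and at 205, 157 and 199 CPM with Ni. Ni replicate 2 lay just under control replicate 3, and the remaining Ni libraries were above all controls. Control libraries averaged 127 ± 30.2 CPM (SD, n = 3), against 187 ± 25.9 CPM for Ni (SD, n = 3). Its log2 fold change was 0.56 (SE 0.17, unadjusted p = 0.00941, adjusted p = 0.296, edgeR), and 0.77 without control replicate 3 (adjusted p = 0.00118). None of its 9089 exon bases is shared with another gene.

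Cdkn1c (ENSMUSG00000037664) encodes p57, an inhibitor of cyclin-dependent kinases that holds cells out of the cycle, and lies at chr7:143458339-143461050. It had few reads, with 30, 20 and 23 counts in the controls and 14, 39 and 17 in the Ni libraries. Ni replicate 2 was the highest of the 6 libraries and the other Ni libraries were the lowest. Of the 2039 exon bases of Cdkn1c, 30.7% lie under exons of Gm44732 on the opposite strand, which had 0 counts in all libraries. Strand use in counting is not stated, so the level of Cdkn1c is uncertain. The estimate of -0.13 on the log2 scale was smaller than its standard error of 0.45 (adjusted p = 0.931, edgeR), and it went to -0.74 without Ni replicate 2, to 0.15 without Ni replicate 1 and to 0.07 without Ni replicate 3.

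Mest (ENSMUSG00000051855), which encodes a hydrolase-like protein of embryonic mesoderm and growing fat, had the largest log2 fold change of the 8 genes tested. It lies at chr6:30723547-30748465 on the plus strand. The controls were at 15.6, 12.8 and 23.8 CPM and the Ni libraries at 36.2, 23.5 and 36.4 CPM. Ni replicates 1 and 3 were above all controls, and Ni replicate 2 was just below control replicate 3. Ni libraries averaged 32.0 ± 7.39 CPM (SD, n = 3), which was 1.84 times the 17.4 ± 5.70 CPM of the controls (SD, n = 3). In edgeR the log2 fold change was 0.88 (SE 0.25, unadjusted p = 0.00756, adjusted p = 0.293). It was 0.89 in DESeq2 (adjusted p = 0.0212) and 1.18 in edgeR without control replicate 3 (adjusted p = 0.00206). Of the 3945 exon bases of Mest, 23.1% lie under exons of Copg2 on the opposite strand, and strand use in counting is not stated. Copg2, with 975 to 1298 counts in a library, had a log2 difference of -0.00 (SE 0.10, edgeR).

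Peg3 and Plagl1 encode zinc finger proteins that bind DNA, and Ndn encodes necdin, a MAGE family protein that slows proliferation. Peg3 (ENSMUSG00000002265, chr7:6703892-6730431) was at 3.00, 3.97 and 4.26 CPM in the controls and at 5.27, 4.72 and 6.91 CPM in the Ni libraries. As for H19, no Ni library reached down to a control. With a log2 difference of 0.59 (SE 0.24, unadjusted p = 0.0318, adjusted p = 0.346, edgeR) it did not pass the adjustment. Groups did not overlap, with Ni higher, for 7.97% of all genes tested and for H19 and Peg3 among the 8 (exact permutation test, two-sided, p = 0.1 for each, the smallest possible). With Ni lower, they did not overlap for 6.71% of all genes tested and 0 of the 8.

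Plagl1 (ENSMUSG00000019817, chr10:13060504-13131694), which has been placed near the head of the imprinted network as an activator of other imprinted genes, overlapped between the groups. The controls held 35.1, 33.2 and 43.0 CPM and the Ni libraries 48.9, 36.7 and 47.6 CPM, with Ni replicate 2 below control replicate 3. Its log2 fold change was 0.26 (SE 0.14, adjusted p = 0.445, edgeR). Ndn (ENSMUSG00000033585, chr7:62346569-62350262) stood at 12.7, 16.3 and 20.04 CPM in the controls and at 18.7 to 19.4 CPM in the Ni libraries. The Ni libraries were close together, and control replicate 3 was above all of them, so that the log2 fold change of 0.22 (SE 0.16, adjusted p = 0.589, edgeR) lay within the spread of the controls. It was 0.07 without control replicate 1 and 0.40 without control replicate 3 (unadjusted p = 0.0193, adjusted p = 0.0955, edgeR).

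**Figure D2:**
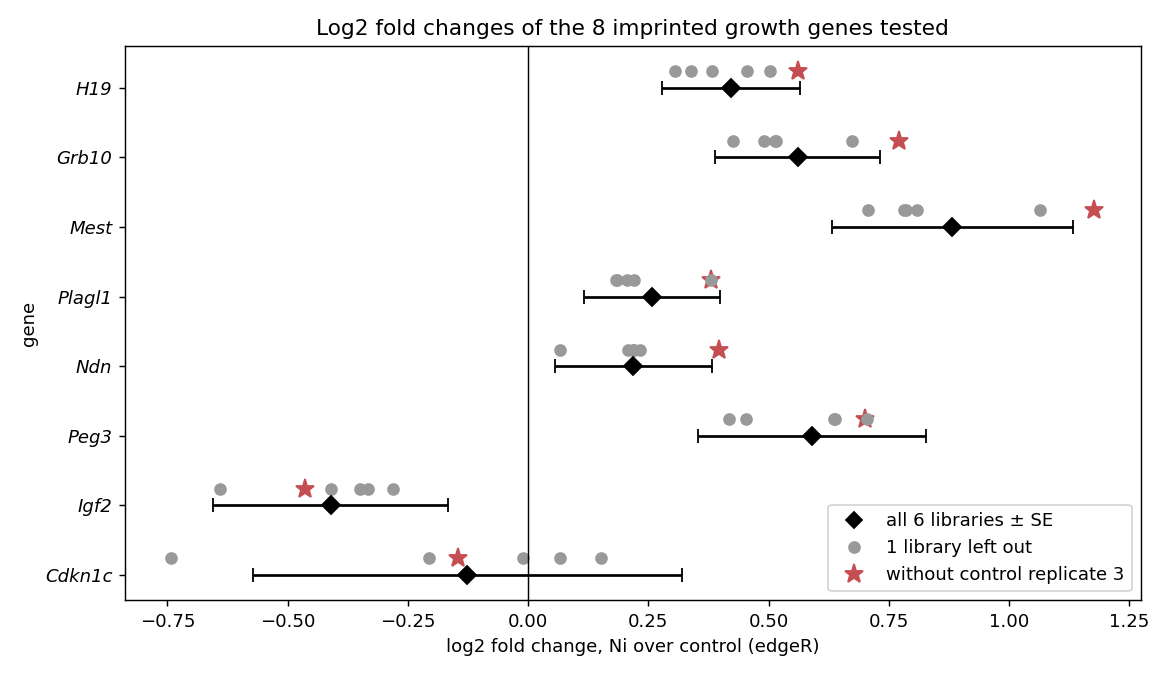
Log2 fold change, Ni over control, of the 8 genes tested (horizontal axis, edgeR), with diamonds and bars for the estimate ± standard error from all 6 libraries, grey points for fits with 1 library left out and stars for the fit without control replicate 3. The estimates run from -0.41 for Igf2 to 0.88 for Mest, and that of Cdkn1c is the one that crosses 0 when a library is left out.

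Dlk1 and Meg3, the paternally and maternally expressed genes of the imprinted domain on chromosome 12, were at or near 0 in both groups. Dlk1 (ENSMUSG00000040856, chr12:109452823-109463336) encodes a membrane protein related to the Notch ligands that keeps preadipocytes and stromal progenitors undifferentiated. No library held a read on it, which allows at most 0.161 to 0.186 CPM in a library (3 counts of its total, counting error only). None of its 5657 exon bases is shared with another gene. Meg3 (ENSMUSG00000021268, chr12:109541001-109571726), a long noncoding RNA that lies 77.7 kb further along, had 8, 1 and 3 counts by control replicate and 4, 7 and 3 by Ni replicate. It did not pass edgeR's filter, although 16590 of its 18089 exon bases are free of other genes. Fits that kept it gave a log2 fold change of 0.19 with an SE of 1.03 (edgeR with no filter, adjusted p = 0.968) and of 0.19 with an SE of 1.12 (DESeq2, no adjusted p).

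The listed neighbours of this domain were split in the same libraries. Mirg had 0 counts in all libraries, Rtl1 had 1 count in control replicate 3, and Rian had 2 counts in control replicate 1 and 7 in Ni replicate 2. Dio3, at the far end of the domain and 707.3 kb from Meg3, encodes the deiodinase that inactivates thyroid hormone. It held 204, 182 and 217 counts in the controls and 166, 207 and 145 in the Ni libraries, a log2 difference of -0.30 (SE 0.18, adjusted p = 0.480, edgeR). Begain, on the other side of Dlk1, held 10 to 29 counts (log2 fold change 0.54, SE 0.48, adjusted p = 0.656, edgeR). Per length, Dio3 stood at 5.80 ± 0.479 FPKM in the controls (SD, n = 3), beside 0.0124 FPKM for Meg3.

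**Figure D3:**
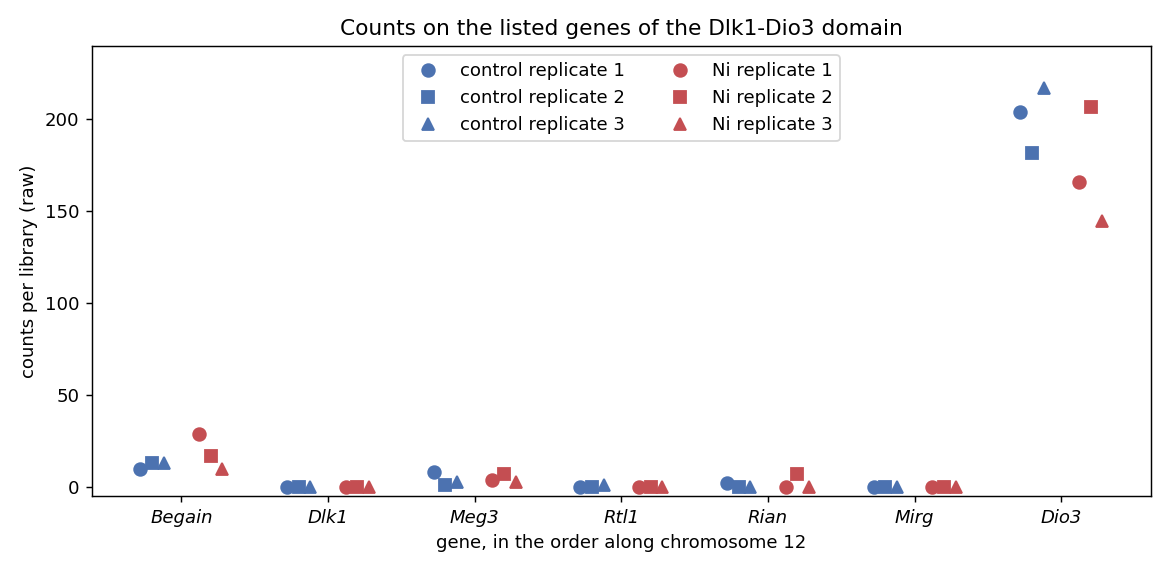
Raw counts per library (vertical axis) of 7 genes of the Dlk1-Dio3 domain, in their order along chromosome 12, for the 3 control and 3 Ni libraries. Dio3 lies between 145 and 217 counts, whereas Dlk1, Meg3, Rtl1, Rian and Mirg lie at 0 to 8.

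Libraries of 1 group differed from each other in these genes as a set. Relative to the mean of the controls, the median of the 8 genes on the log2 CPM scale was -0.09, -0.11 and 0.23 in controls 1 to 3 and 0.45, 0.30 and 0.37 with Ni. Control replicate 3 was above both other controls for H19, Grb10, Mest, Plagl1, Ndn and Peg3. Ni replicate 2 was the lowest Ni library for H19, Grb10, Mest, Plagl1 and Peg3 and the highest for Igf2 and Cdkn1c. It was also the highest for Ndn, for which the Ni libraries were close together. The summed osteoblast markers took 1.04%, 1.02% and 2.06% of the counts of controls 1 to 3 and 3.00%, 2.28% and 3.01% with Ni. In edgeR 10 of these 10 markers were higher with Ni at an unadjusted p under 0.05, beside 7.59% of all genes tested. At an adjusted p under 0.05 there were 0, and 8 without control replicate 3, beside 15.2% of all genes in that fit. The osteoblast sum thus moved with the median of the imprinted growth genes, and its part in the result was not tested. The stromal markers did not move as 1 set. Col1a2, a collagen that osteoblasts also make, took 0.345% to 0.572% of the counts in the controls and 0.712% to 0.908% in the Ni libraries, and the other 9 stromal markers together took 0.236% to 0.278% and 0.198% to 0.215%. Of all 10, 6 had a positive and 4 a negative log2 fold change (median 0.14). At an unadjusted p under 0.05 in edgeR 2 were higher and 1 lower, beside 7.59% and 5.83% of all genes tested. Cxcl12, a chemokine of marrow stroma, was lower in every Ni library than in every control (log2 fold change -0.47, SE 0.14, unadjusted p = 0.00634, adjusted p = 0.292, edgeR). Without control replicate 3, edgeR called 5 of the 10 stromal markers higher, among them Nt5e (log2 fold change 1.33) and Ly6a (1.03). In that fit 1, Cxcl12, was called lower, and 15.2% of all genes were called. The macrophage markers did not move as 1 set either, although their sum overlapped between the groups. Of the 12, 4 had a positive and 8 a negative log2 fold change (median -0.15). At an unadjusted p under 0.05 in edgeR 0 were higher and 2 lower, beside 7.59% and 5.83% of all genes tested. Without control replicate 3, edgeR called 1 higher (Mrc1) and 3 lower (Adgre1, Itgam and Ptprc), beside 15.2% of all genes. Likeness was measured by Pearson's r with H19 over the log2 CPM of the 6 libraries, as a description. The closest of the 14623 other genes tested were Hddc2, Chsy3, Fntb, Fam189b and 2310022B05Rik, with r from 0.989 to 0.994, and they share the libraries, the depth and the difference between the groups with it.

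**Figure D4:**
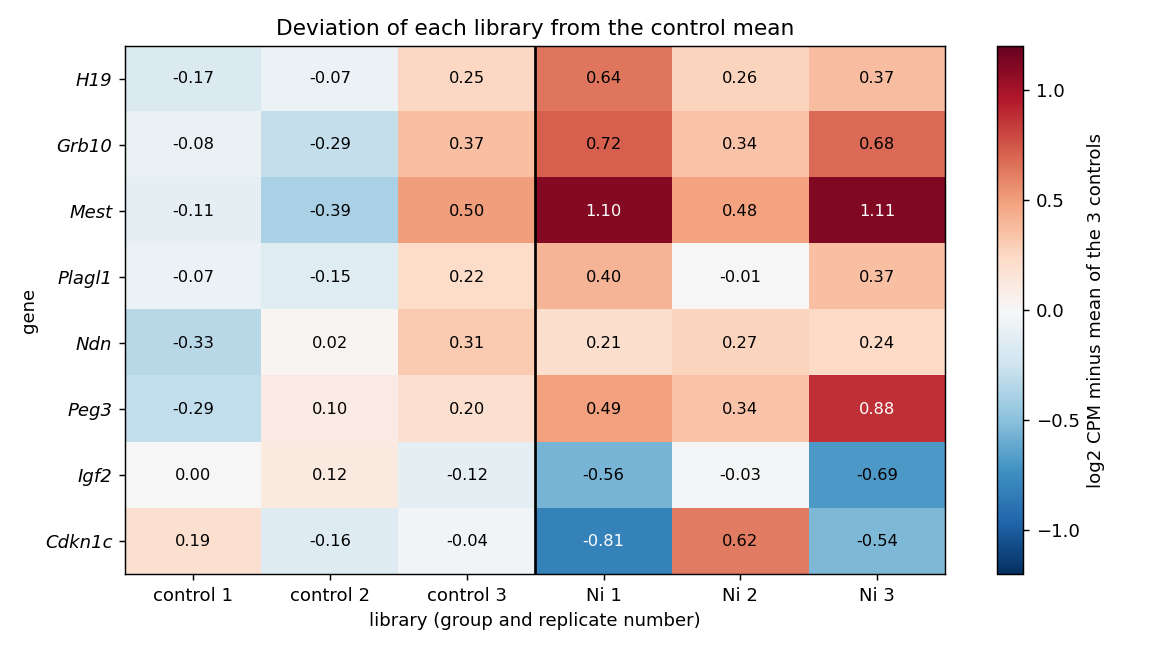
Log2 CPM of each library minus the mean of the 3 controls (colour and printed value) for the 8 genes tested, with genes in rows and libraries in columns. H19, Grb10, Mest, Plagl1, Ndn and Peg3 are positive in control replicate 3 as well as in Ni replicates 1 and 3, where Igf2 and Cdkn1c are negative.

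Other imprinted genes had a median closer to 0. Of 47 other imprinted genes 31 were tested, 18 with a positive and 13 with a negative log2 fold change and a median of 0.02. None passed an adjusted p of 0.05 in edgeR, and at the unadjusted threshold 2 were higher (Asb4 and Airn) and 2 lower (Ascl2 and Nnat). Of all genes tested, 7.59% were higher and 5.83% lower at that threshold. Without control replicate 3, Asb4 (log2 fold change 1.42, adjusted p = 0.00299) and Ascl2 (-1.33, adjusted p = 0.0161) were called in edgeR, of 32 tested, beside 15.2% of all genes in that fit. The difference between these genes and the imprinted growth genes was not tested.

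Listed imprinted neighbours lay within 1 Mb of these genes. Around Igf2, H19 and Cdkn1c, Ascl2, a basic helix-loop-helix factor, was at 19.9, 20.2 and 8.52 CPM in the controls and at 6.84, 11.97 and 5.14 CPM in the Ni libraries. Control replicate 3 again lay among the Ni libraries, and the log2 fold change was -1.02 (SE 0.40, unadjusted p = 0.0346, adjusted p = 0.350, edgeR). Tssc4, Kcnq1ot1 and Slc22a18 had log2 fold changes of -0.12, -0.08 and 0.26, with adjusted p of at least 0.731 in edgeR. Ins2 and Phlda2 had no read in any library, and Kcnq1 had 34 counts over all 6. Next to Ndn, Magel2 had no read and Mkrn3 had 29 counts over all libraries, while Peg12 was tested, with a log2 difference of 0.28 (SE 0.32). Beside Peg3, Zim1 and Usp29 had 9 and 21 counts in all. Beside Mest, Klf14 had none. Beside Grb10, Ddc had 29 counts in all and Cobl a log2 difference of 0.18 (SE 0.30), and beside Plagl1, Phactr2 had one of 0.08 (SE 0.09).

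Relatives of these genes that are not imprinted were compared next. Of 11 such genes 10 were tested, 8 of them with a positive log2 fold change and a median of 0.28. At an unadjusted p under 0.05, 3 were higher and 1 lower, beside 7.59% and 5.83% of all genes tested, and none passed the adjustment in edgeR. Maged1, a relative of necdin, was at 167 to 255 CPM in the controls and at 284 to 290.4 CPM in the Ni libraries, with no overlap (log2 fold change 0.54, SE 0.16, adjusted p = 0.292, edgeR). Grb14, a relative of Grb10, was at 17.0 to 28.4 CPM in the controls and at 31.4 to 33.0 CPM in the Ni libraries, again without overlap (log2 fold change 0.60, SE 0.18, adjusted p = 0.294, edgeR). Maged2 had a log2 fold change of 0.44 and Plagl2, a relative of Plagl1, one of -0.46 (adjusted p = 0.367 for each, edgeR). Without control replicate 3, edgeR called 4 of the 10 higher and 1 lower, beside 15.2% of all genes called in either direction in that fit. Log2 fold changes there were 0.77 for Maged1 (adjusted p = 0.000171), 0.87 for Grb14 (0.000418), 0.73 for Maged2 (0.000646) and -0.66 for Plagl2 (0.000941). The fifth was Cdkn1a (0.62, adjusted p = 0.000477), named here after its values were seen.

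Genes through which IGF2 mRNA is bound and IGF2 is sensed were compared as well. All 7 receptors, receptor substrates and Igf2 mRNA binding proteins were tested, 5 with a positive log2 fold change and a median of 0.26. Of these 1, Irs1, had an unadjusted p under 0.05, beside 13.4% of all genes tested. Irs1, which links the IGF1 and insulin receptors to PI3K, was at 32.2, 27.2 and 44.5 CPM in the controls and at 48.4, 43.7 and 48.8 CPM in the Ni libraries (log2 fold change 0.44, SE 0.16, adjusted p = 0.334, edgeR). Igf1r, the main signalling receptor for IGF2, had a log2 difference of 0.29 (SE 0.14), Irs2 one of 0.26 (SE 0.15) and Insr one of -0.19 (SE 0.10), with adjusted p of 0.400, 0.471 and 0.429 in edgeR. Without control replicate 3, edgeR called Irs1 (0.67, adjusted p = 0.00225) and Igf1r (0.46, adjusted p = 0.0241), beside 15.2% of all genes in that fit. Differences between the lists were not tested.

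Imprints are set and kept by DNA methyltransferases, zinc finger proteins and their partners, and Tet proteins oxidise and so help to remove methylation. Of 14 genes of both kinds, 13 were tested, and the median log2 fold change was -0.08, with 6 positive and 7 negative. Dnmt3a, a DNA methyltransferase that sets new methylation, was at 126, 134 and 111 CPM in the controls and at 101, 113 and 99.8 CPM in the Ni libraries, a log2 difference of -0.24 (SE 0.10, unadjusted p = 0.0404, adjusted p = 0.361, edgeR). It was the one gene of this list with an unadjusted p under 0.05, beside 13.4% of all genes tested. Zfp445, Tet1 and Tet2 had log2 fold changes of -0.19, 0.50 and -0.27, with adjusted p of 0.382, 0.451 and 0.509 in edgeR. Without control replicate 3, edgeR called Dnmt3a (-0.31, adjusted p = 0.0448) and Tet2 (-0.44, adjusted p = 0.0283) lower, beside 15.2% of all genes called in either direction in that fit.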

How the data were processed

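Starting material was the pair of gene tables for 3 control and 3 Ni cultures. In 1 table the authors give raw counts per gene, and in the other the deposited values are FPKM, which match those counts scaled by gene length and a single factor per library. The genome build is GRCm38 per the labels. The aligner, the counting tool and the use of strand are not given in the sources used here. Samples were grouped by their labels, and the series' design text calls the replicates independent.

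Genes were kept by filterByExpr, normalized by TMM and tested with the quasi-likelihood test of edgeR 4.0.16 (robust, prior count 0.125) in R 4.3.3, with Benjamini-Hochberg adjustment over 14624 genes. The SE of a log2 fold change is its size, without shrinkage, over the square root of the F statistic. Log2 CPM used a prior count of 2. Alternatives were DESeq2 1.42.0, limma 3.58.1 on log2(FPKM + 1) and log2(FPKM + 0.1), other normalizations and filters, a gene-length correction, a replicate block and leaving out each library. The tests were checked on simulated data with 200 genes changed by a log2 of 0.5, 1 or 1.5. There edgeR recovered 3%, 66.5% and 82.5% of them, and 25%, 5.67% and 9.34% of its calls were false. Most changes of 0.5 were thus missed. The simulated counts varied independently by gene, and no simulated library was shifted as a whole as control replicate 3 was. The shares recovered and false therefore need not hold for the real libraries. Of the DESeq2 calls 32.1%, 10.8% and 14.7% were false. With no gene changed, edgeR called 0 genes and DESeq2 5. Exon overlaps came from GENCODE M21, in which the 10 genes have the coordinates of the deposited annotation. The genes and lists were chosen with earlier results of these data known. All 10 genes are named, as are listed imprinted genes within 1 Mb of them and, in each list, the 4 genes with the smallest unadjusted p.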

Additional observations from a re-analysis of the deposited data

How the results depend on the processing

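edgeR called 0 imprinted growth genes at an adjusted p under 0.05, with 4 at that unadjusted p. The number called was 1 with DESeq2, 3 with no filter on low counts, and 0 with other normalizations, a filter of at least 10 counts in every library, the gene-length trend removed, or limma on FPKM. Over all genes the count was 264 with DESeq2 and 1027 with no filter. With each library left out in turn, 0 to 3 imprinted growth genes and 0 to 2283 genes in all were called, the highest values being those without control replicate 3. Of the calls, Mest was made with DESeq2, and H19, Mest and Grb10 without the filter and without control replicate 3, and the cause was not tested. The median log2 fold change of 0.34 lay between 0.20 and 0.48 over the 18 alternatives, less than 1 SD between libraries (0.15) from it, and between 0.21 and 0.48 where Meg3, which 3 alternatives also test, is left out. The log2 fold changes of H19, Grb10, Mest, Peg3, Plagl1, Ndn and Igf2 kept their sign in all 18 alternatives, and that of Cdkn1c lay from -0.74 to 0.15 with a library left out. Adjusted p over the alternatives ranged from 0.00517 to 0.830 for H19, from 0.000129 to 0.830 for Grb10 and from 2.70e-07 to 0.830 for Mest. The lowest values of Grb10 and Mest came from edgeR with no filter on low counts. There the SE of Mest was 0.14, against 0.25 in the main fit.

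Deviations from the group means correlated at 0.01, 0.26 and 0.14 between libraries of like number. As the value was below 0.1 for replicate 1, the main fit did not treat the libraries as paired. Replicates 2 and 3 were above 0.1, and pairs of unlike number were not compared, so these values do not settle whether the cultures were paired. A fit with a replicate block called 315 genes and 2 imprinted growth genes, Mest and Grb10. Removing the gene-length trend from that block fit left 271 genes and 2 imprinted growth genes. Dlk1, at 0 counts, could be tested in no fit. The listed genes without control replicate 3 were looked at after the data had been seen.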

Other observations

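Among imprinted genes away from those described above, the smallest p belonged to Asb4, Airn and Nnat. Asb4, a gene of the Peg10 and Sgce domain on chromosome 6 with a role in ubiquitin ligation, was at 2.73, 3.72 and 7.26 CPM in control replicates 1 to 3 and at 7.17, 7.71 and 10.9 CPM in Ni replicates 1 to 3 (log2 fold change 0.91, SE 0.34, unadjusted p = 0.0251, adjusted p = 0.337, edgeR's quasi-likelihood test). Control replicate 3 lay within the range of the Ni libraries, and without it the log2 fold change was 1.42 (adjusted p = 0.00299, edgeR). Sgce and Peg10, its neighbours, had log2 fold changes of 0.35 (SE 0.16) and 0.60 (SE 0.30), with adjusted p of 0.380 and 0.402 in edgeR.

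Airn, the noncoding RNA that is transcribed against Igf2r and silences it on the paternal copy, had 40, 31 and 41 counts by control replicate and 58, 63 and 62 by Ni replicate, with no overlap (log2 fold change 0.63, SE 0.25, adjusted p = 0.341, edgeR). Igf2r itself, which clears IGF2, had a log2 difference of -0.01 (SE 0.09, edgeR). Reads of these overlapping genes cannot be told apart unless strand was used in counting. Nnat, a small membrane protein gene inside Blcap, had 21 counts in each control and 14, 12 and 4 with Ni (log2 fold change -1.15, SE 0.48, adjusted p = 0.350, edgeR), while Blcap had a log2 difference of -0.09 (SE 0.11).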
